A study of Homo sapiens with 8 samples.

Results

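The experiment described here is the transfection of MDA-MB-231 (labelled MDA-MB231), a long-established line of human breast cancer cells without estrogen receptor, with the small interfering RNA siE3 against the control siRNA siC. Small interfering RNAs (siRNAs) are short double-stranded RNAs that guide the breakdown of a matching mRNA, and siE3 is 1 of 3 siRNAs (siE1, siE2 and siE3) used to silence ESRRA, the gene of the orphan nuclear receptor ERRα. Cells of all groups were kept in DMEM with 10% FCS and transfected with the reagent INTERFERin, and the groups differed only in the siRNA named by the labels. The 4 libraries labelled siC-1, siC-2, siE3-1 and siE3-2 were taken, of 8 in the series, with 2 libraries per siRNA (n = 2). Raw counts of 23368 gene symbols were deposited, and all of them entered. Of these, 13395 (57.3%) had enough reads to be tested, 5492 had no read in any library and 4481 had too few. None of the sources used here gives the sequence or dose of siE3, or the time from transfection to harvest.

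ERRα belongs to the estrogen-related receptors, nuclear receptors for which no natural hormone is established. It binds DNA at the ERR response element and, with the coactivators of the PGC-1 family (PPARGC1A, PPARGC1B and PPRC1), drives nuclear genes of the respiratory chain, the citric acid (TCA) cycle and mitochondrial biogenesis. In breast cancer cells it has been studied for its part in energy use, migration and invasion.

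The siC libraries held 22047738 and 23624089 counts and the siE3 libraries 21835995 and 23586024, with 15624 to 15785 genes detected in each. The chi-square per degree of freedom between libraries was 5.12 within siE3, 3.47 within siC and 40.6 to 45.4 between a siE3 and a siC library, so that no library was a repeat of another. Whether the duplicates were separate cultures is not stated, and p-values here reflect only how far these libraries differ, which may be technical. Markers of the line were in place: VIM stood at a mean of 3606 CPM (the count scaled to the TMM-adjusted library size) under siC, AXL at 1544 and CD44 at 717, while KRT5 and PGR had 0 counts in all libraries and ESR1 and CDH1 at most 3. GATA3 and EPCAM, also listed as low or absent in this line, had enough reads to be tested. Together they summed to 13.28 to 15.3 CPM under siC and 15.09 to 15.75 under siE3, and neither was called. Of 19 markers of blood, endothelial, fibroblast and fat cells, 12 were too low to test, with 0 counts of PTPRC and ADIPOQ in the siC and siE3 libraries. The 7 tested ones summed to 224 to 235 CPM under siC and 333 to 339 under siE3. CD68, also the gene of a lysosomal protein, made up most of this sum and was higher (log2 fold change 0.56), as was PDGFRB, at 0.776 and 0.9 CPM under siC and 2.83 and 1.99 under siE3, and the part of these markers in the results below was not tested.

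ESRRA itself was the gene with the lowest fold change among those with at least 5 CPM. It stood at 62.9 and 64.8 CPM under siC and 8.55 and 8.31 under siE3 (means 63.9 ± 1.31 and 8.43 ± 0.171 CPM, SD, n = 2), with no overlap between the groups. The 13.2% that remained corresponds to a log2 fold change of -2.92 (edgeR adjusted p = 4.91e-12, SE 0.0894). ESRRA was at -0.30 on the log2 scale against siE1 (edgeR adjusted p = 0.031) and at 0.06 against siE2 (edgeR adjusted p = 0.673), the latter not called. The paralogs ESRRB and ESRRG had at most 2 counts in any library and were not tested.

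Across the 13395 genes, 5643 (42.1%) were called under siE3 at an edgeR quasi-likelihood adjusted p below 0.05, 2858 higher (21.3%) and 2785 lower (20.8%). Most differences were small, with a median absolute log2 fold change of 0.365 among the called genes and of 0.208 over all. A change of at least 1.5-fold was met by 1335 genes (9.97%), 798 higher (5.96%) and 537 lower (4.01%), so that the larger changes leaned upward while all calls together were near even. At 2-fold or more there were 243 higher and 130 lower, and at 4-fold or more 20 and 9. Without siC replicate 2 the calls numbered 4198, the fewest over the 8 sets with a library left out. Of the genes in the authors' deposited table, 3792 had an adjusted p below 0.05 for siE3, of which 3788 were tested here and 3787 (99.9%) were called in the same direction.

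The share of genes called followed their abundance. It was 9.18% of 1263 genes under 1 CPM, 27.5% of 2726 genes at 1 to 10 CPM, 47.4% of 6609 at 10 to 100 CPM and 58.9% of 2797 above 100 CPM. The smallest log2 difference that was called fell from 0.794 to 0.29, 0.129 and 0.102 over these 4 classes, so a rarer gene had to move further to be called. Among genes at 1 to 10 CPM 444 were higher and 305 lower, whereas above 100 CPM 741 were higher and 907 lower. Protein-coding genes were near even (2764 higher and 2635 lower of 12352), with 43.7% of them called. Of 222 long noncoding RNA genes 24.3% were called, 17 higher and 37 lower. Of 345 genes of other annotated types 20.6% were called, 15 higher and 56 lower. No source used here names the annotation or strand setting of the counting, and where genes overlap or run antisense their reads cannot be told apart. RNA was measured in bulk, and fewer cells with a transcript cannot be told apart from less of it per cell.

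**Figure D1:**
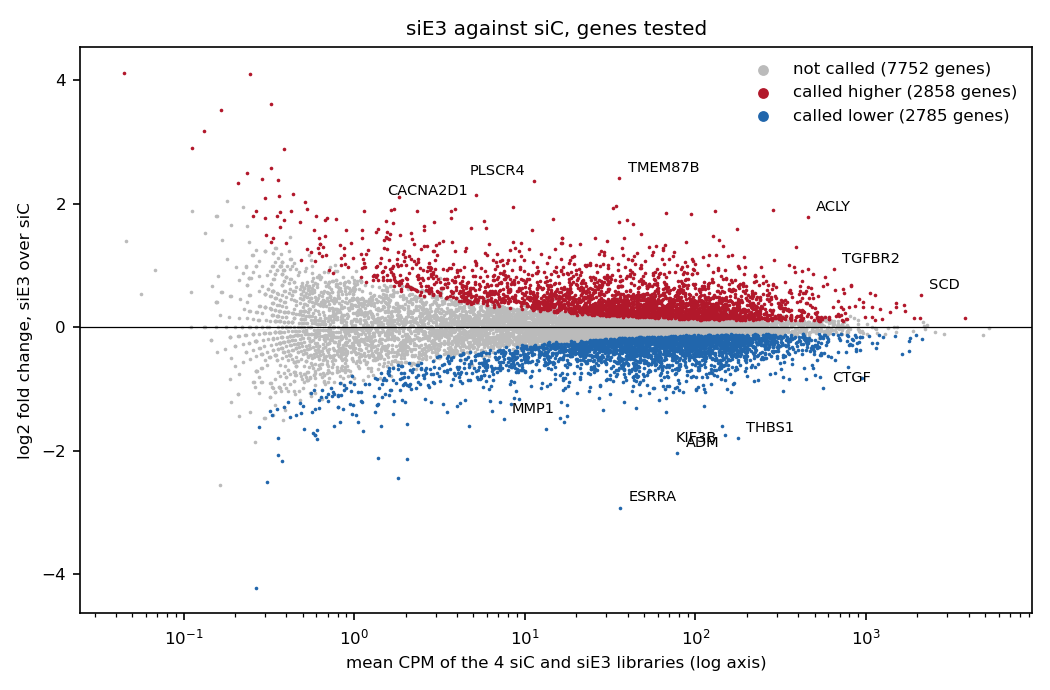
Mean CPM of the 4 siC and siE3 libraries (log axis) against the log2 fold change of siE3 over siC for the 13395 genes tested, with genes called higher in red (2858), called lower in blue (2785) and not called in grey (7752). ESRRA lies at -2.92, below the rest of the genes with more than 5 CPM, and the spread of uncalled genes widens toward low CPM.

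The genes with the highest fold changes were taken among those with at least 5 CPM and no overlap between siE3 and siC libraries, which held for 69.1% of the genes tested (34.5% higher and 34.7% lower). They were of mixed function. TMEM87B, a Golgi membrane protein gene, went from 11.2 and 11.4 CPM under siC to 61.9 and 58.5 under siE3, a log2 fold change of 2.41 (edgeR adjusted p = 6.78e-12, SE 0.0768). The phospholipid scramblase gene PLSCR4 stood at 3.7 and 3.6 CPM under siC and 18.7 and 19.04 under siE3 (log2 fold change 2.37). CACNA2D1, an auxiliary subunit of voltage-gated calcium channels, stood at 1.78 and 2.01 CPM under siC and 8.18 and 8.7 under siE3 (log2 fold change 2.15). In these 3 genes the lowest siE3 library was more than 4-fold above the highest siC library, which describes genes chosen for their fold change. PLSCR4 and CACNA2D1 met the limit of 5 CPM on the mean only through siE3, so they could enter this ranking only as higher. TRIB2, a pseudokinase that steers ubiquitin ligases, was at 1.97, and the p53-inducible autophagy gene TP53INP1 at 1.95.

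A pair of protein kinase genes followed. UHMK1 rose from 122 and 117 CPM under siC to 443 and 451 under siE3 (log2 fold change 1.90, SE 0.0454) and NEK7, a mitotic kinase that is also needed for the NLRP3 inflammasome, from 55 and 55.96 CPM under siC to 204 and 208 under siE3 (1.89). Replicates of each group lay within a few percent of each other in both genes. TGFBR1, the type I receptor of TGF-β, went from 27.3 and 30.9 CPM under siC to 103 and 106 under siE3 (log2 fold change 1.84). The RNA-binding protein gene RBMS1 went from 42.3 and 41.1 CPM under siC to 143 and 152 under siE3 (log2 fold change 1.83). ACLY, the enzyme that turns citrate into cytosolic acetyl-CoA for lipid synthesis, was the most abundant of the 15 highest, at 199 and 214 CPM under siC and 693 and 721 under siE3 (log2 fold change 1.78, SE 0.0451, edgeR adjusted p = 7.03e-13). The other 5 of the 15 were TMEM65 (log2 fold change 1.94), the cyclin-like CCNG2 (1.76), TMEM64 (1.74), the guanylate-binding protein gene GBP2 (1.72) and FAM73A (1.71).

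At the other end, the secreted vasodilator peptide gene ADM followed ESRRA. ADM stood at 123 and 129 CPM under siC and 27.6 and 33.7 under siE3, a log2 fold change of -2.04 (edgeR adjusted p = 4.28e-11, SE 0.0746). THBS1, encoding the matrix glycoprotein thrombospondin-1, fell from 285 and 266 CPM under siC to 69.6 and 89.5 under siE3 (log2 fold change -1.79, SE 0.0844). The kinesin-2 motor gene KIF3B fell from 235 and 227 CPM under siC to 66.7 and 70.5 under siE3 (log2 fold change -1.75). These 3 genes kept 24.3%, 28.9% and 29.7% of their control level, with a wider spread between the siE3 replicates of ADM and THBS1 than of KIF3B. IL6R, the interleukin-6 receptor, went from 21.7 and 18.7 CPM under siC to 6.4 and 6.53 under siE3 (log2 fold change -1.64), while its signalling partner IL6ST rose (0.74). EIF4EBP2, a repressor of cap-dependent translation, went from 217 and 214 CPM under siC to 70.2 and 71.7 under siE3 (log2 fold change -1.60), with nearly equal replicates.

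The rest of the 15 lowest were the heparan sulfate proteoglycan SDC2 (log2 fold change -1.53), the interstitial collagenase MMP1 (-1.49), CHIC1 (-1.47), the cyclin CCNJ (-1.44), YIPF6 (-1.37), the small nucleolar RNA host gene SNHG4 (-1.36), SPATA2 (-1.34), the RNA-binding RBM38 (-1.31) and the mucin-type glycosyltransferase GALNT2 (-1.28). MMP1 was the noisiest of them, at 9.17 and 13.03 CPM under siC and 3.06 and 4.8 under siE3 (SE 0.229, edgeR adjusted p = 8.82e-05). Its 2 siE3 libraries lay below both siC libraries, and MMP1 met the limit of 5 CPM on the mean only through siC.

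**Figure D2:**
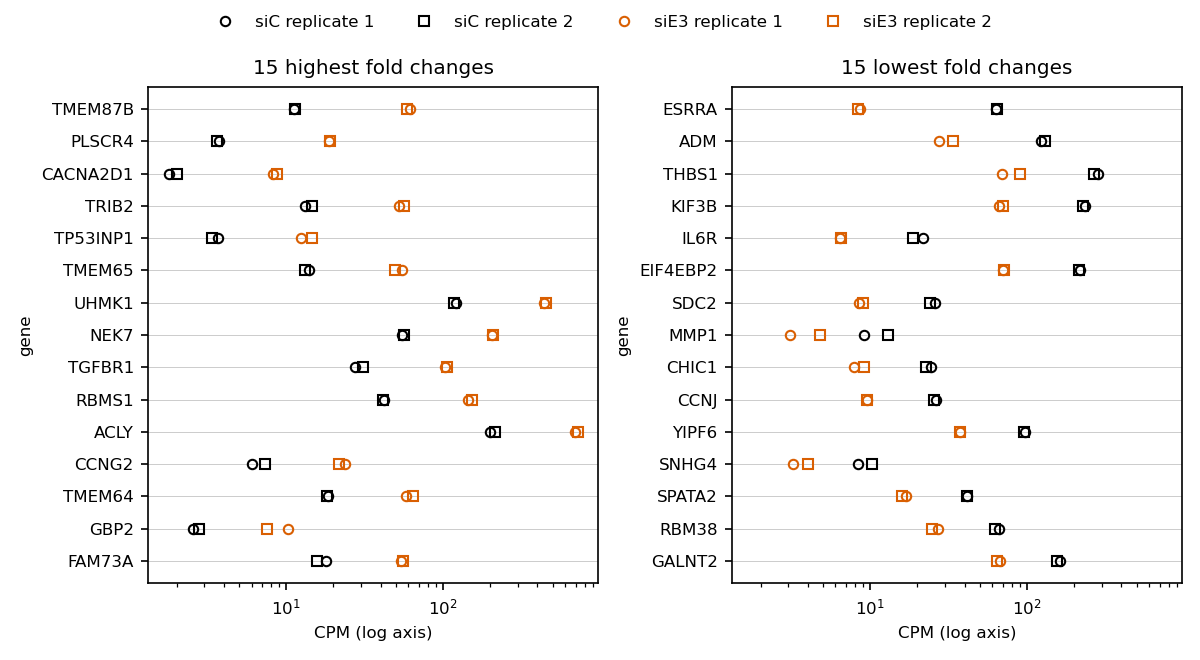
CPM (log axis) of the 15 genes with the highest and the 15 with the lowest log2 fold change of siE3 over siC, each with its 2 siC libraries (black) and 2 siE3 libraries (orange), circles for replicate 1 and squares for replicate 2. In every gene shown the siE3 libraries lie apart from the siC libraries, as the choice of these genes required, and MMP1 and GBP2 have the widest spread between replicates.

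Genes were also ranked by their change in CPM. SCD, the stearoyl-CoA desaturase, gained most, from 1717 and 1740.5 CPM under siC to 2430.1 and 2519 under siE3 (log2 fold change 0.52). Among the genes next in order were ACLY, the ferritin light chain FTL (log2 fold change 0.37), the type II TGF-β receptor TGFBR2 (448 and 442 CPM under siC and 861 and 840.1 under siE3, 0.94) and the ectonucleotidase NT5E (0.52). The actin crosslinker ACTN4 lost most, from 1263 and 1169.5 CPM under siC to 695 and 679 under siE3 (log2 fold change -0.82). It was followed by the elongation factor EEF2 (log2 fold change -0.43), the chaperone HSP90AB1 (-0.39), the matricellular CTGF (734 and 759 CPM under siC and 369 and 388 under siE3, -0.98) and CYR61 (-0.64), and the actin-capping CAPZA1 (-0.81). Replicates of siE3 and siC did not overlap in any of these genes, which were chosen as called genes with large changes. Since 69.1% of the genes tested did not overlap, non-overlap is a description here and below.

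Genes were then read in lists by function, with counts set beside the background of 21.3% higher and 20.8% lower and the median log2 fold change of -0.00179 over all genes tested. Among the coregulators of ERRα, PPRC1 fell (138 and 151 CPM under siC and 102 and 114 under siE3, log2 fold change -0.42), PPARGC1A was higher from a low level (4.43 and 4.11 CPM under siC and 5.67 and 5.58 under siE3, 0.40) and PPARGC1B was at 0.08, not called. The p160 coactivator NCOA2 rose (46.1 and 42.03 CPM under siC and 75.7 and 78.6 under siE3, log2 fold change 0.81) and the corepressor NRIP1 fell (-0.23). Of the 12 tested genes of this list 4 were higher and 3 lower, ESRRA among the lower. The higher count was 1 without siC replicate 2 or without siE3 replicate 2, and 2 without siE3 replicate 1. Of 14 tested genes described elsewhere as ERRα targets, 7 were lower and 4 higher (median -0.13). The lower ones included the electron carrier CYCS (log2 fold change -0.62), the mitofusin MFN2 (-0.36), SDHB (-0.35), ATP5B (-0.33), IDH3A (-0.27) and SDHA (-0.15). The higher ones were ACADM (log2 fold change 0.18), GABPA (0.38), VEGFA (0.59) and the deacetylase SIRT3 (0.60). CYCS, the largest fall of these, stood at 208 and 234 CPM under siC and 135 and 154 under siE3, without overlap, as in 69.1% of the genes tested.

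The ERR response element was searched as TNAAGGTCA, N being any base, on both strands (TGACCTTNA on the other) of RefSeq promoter windows of 300 bases on GRCh38.p14, from 250 bases before to 50 after the start. Genes matched to a window were counted once, with a match in any of their windows. These letters were found for 20 of 2286 genes called higher (0.875%), 21 of 2264 called lower (0.928%) and 42 of 5919 not called (0.71%). The share was 83 of 10469 (0.793%) over the genes tested and 319 of 27305 (1.17%) over all RefSeq genes with a window. Counted by window it was 334 of 35116 (0.951%). None of the 9 target-list genes matched to a window had them. The windows below come from 3 list members with a match before the start and are printed to show the element in its surrounding sequence. Respiratory complexes II to V and glycolysis had 1 member each with a match that is not shown, so the printed windows do not stand for all matches. Capitals mark the element.
SOD3: gctgtgtgcTGAAGGTCActggctaca
NDUFB4: tcctgaagcTGAAGGTCAgcatagaca
TCF7: ttactcctaTAAAGGTCAgggcaccgg
The SOD3 window lies at chr4:24795325-24795351 on the plus strand, with the element starting 239 bases before the gene's start. The extracellular superoxide dismutase gene SOD3 was called higher (log2 fold change 1.09, edgeR adjusted p = 0.000177). The NDUFB4 window lies at chr3:120596286-120596312 on the plus strand and 41 bases before the start, and NDUFB4, a complex I subunit gene, was not called (log2 fold change 0.06, edgeR adjusted p = 0.456). The TCF7 window lies at chr5:134115567-134115593, printed from the minus strand, and TCF7, a Wnt pathway transcription factor gene, was not called (log2 fold change -0.44, edgeR adjusted p = 0.0943).

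Mitochondrial genes were lower in several lists, by small amounts. Of 40 tested genes for complexes II to V of the respiratory chain, 19 were lower and 2 higher (median -0.12). By complex, 3 of 4 succinate dehydrogenase genes were lower, led by SDHD (102 and 101 CPM under siC and 69.5 and 74.7 under siE3, log2 fold change -0.49), as were 6 of 10 genes of complex III and cytochrome c, 3 of 10 of cytochrome oxidase and 7 of 16 of the ATP synthase. The ATP synthase β subunit ATP5B, the most abundant, fell from 1250.0 and 1300.5 CPM under siC to 1001 and 1029.7 under siE3 (log2 fold change -0.33, SE 0.0397). In complex I, the NADH dehydrogenase, 9 of 37 were lower and 2 higher (median -0.04), with NDUFA8 (log2 fold change -0.37) and NDUFB6 (-0.35) lowest, so that the lower share of 24.3% was near the background. The 2 higher subunits were NDUFS5 (log2 fold change 0.14) and NDUFS8 (0.20). They numbered 0 without siC replicate 1 and 1 without siC replicate 2 or without either siE3 library.

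In the TCA cycle 12 of 16 genes were lower (median -0.18). They included the succinyltransferase DLST (log2 fold change -0.39), the citrate synthase CS (-0.30) and the fumarase FH (-0.27), while OGDH was at -0.09 and not called. Genes that feed the cycle were split, 4 lower and 4 higher of 13. The pyruvate dehydrogenase component PDHX (log2 fold change -0.54) and BRP44L, a subunit of the mitochondrial pyruvate carrier (-0.36), fell. The pyruvate dehydrogenase phosphatase PDP1 (62.4 and 68.1 CPM under siC and 90.4 and 102 under siE3, 0.56) and pyruvate carboxylase PC (0.31) rose. In each of these genes both siE3 libraries lay outside the siC range, as in 69.1% of the genes tested. BRP44, the other subunit of the pyruvate carrier, was called higher (log2 fold change 0.23).

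Of 72 genes of the mitochondrial ribosome 25 were lower and 6 higher (median -0.06). MRPL35 stood apart within the list, at 74.1 and 76.7 CPM under siC and 37.9 and 38.7 under siE3 (log2 fold change -0.98, edgeR adjusted p = 1.02e-08), ahead of MRPL12 (-0.61) and MRPS2 (-0.48). Of 13 import and chaperone genes 10 were lower (median -0.20). TOMM20, a receptor of the outer membrane import pore, fell from 247 and 264 CPM under siC to 139 and 158 under siE3 (log2 fold change -0.78). TOMM22 (log2 fold change -0.60), TOMM40 (-0.47) and the matrix chaperone HSPA9 (-0.40) fell as well. Genes of mitochondrial DNA expression gave 5 lower of 10, among them TFAM (log2 fold change -0.28) and TFB2M (-0.24), and 1 higher, GABPA.

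**Figure D3:**
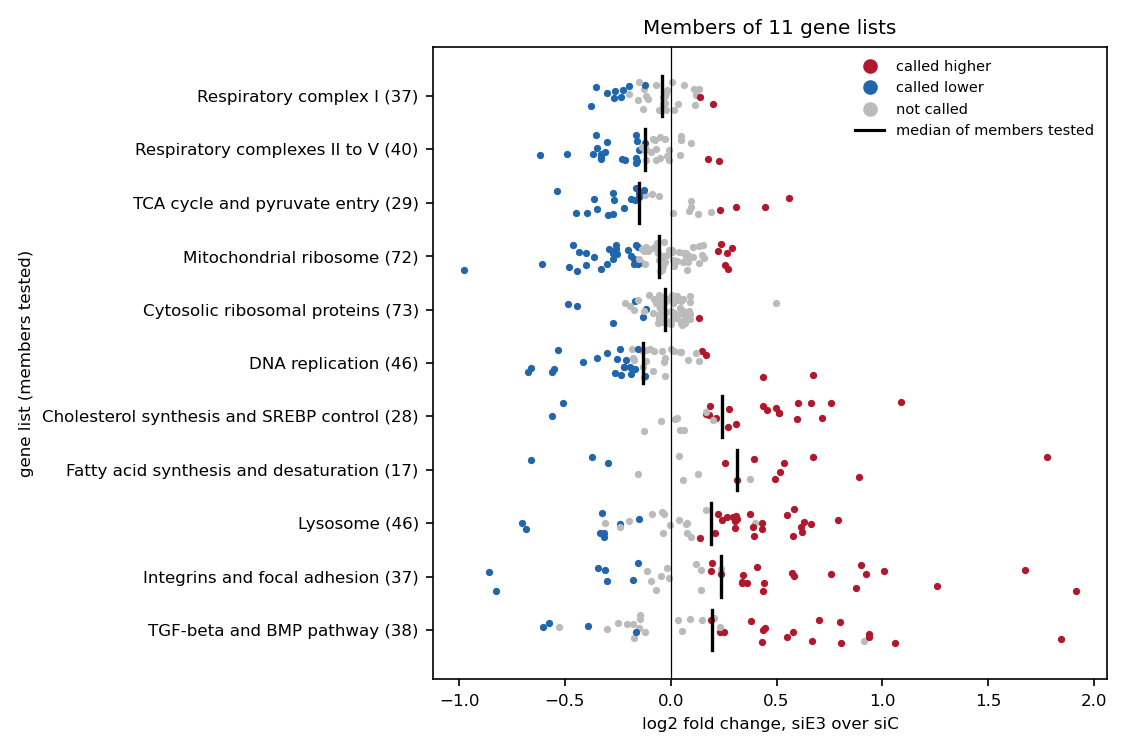
Log2 fold change of siE3 over siC for each tested member of 11 gene lists (number of members in brackets), with members called higher in red, called lower in blue and not called in grey, and a black line at the median. The TCA cycle and replication medians lie left of 0 (-0.15 and -0.13), and the fatty acid synthesis median lies right of it at 0.31, with ACLY as its rightmost point.

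Fuel handling outside the respiratory chain changed in parts. In glycolysis 6 of 24 genes were lower and 2 higher (median -0.09), a lower share near the background, and 1 was higher without siC replicate 2. The hexokinase HK2 fell from 214 and 206 CPM under siC to 123 and 137 under siE3 (log2 fold change -0.69), and GPI (-0.30), PFKM (-0.41) and LDHA (-0.28) were lower, while the lactate exporter SLC16A3 was higher (0.27). In fatty acid oxidation the genes of acyl-CoA formation and transport gave 5 lower of 6, namely ACSL1 (59.7 and 52.96 CPM under siC and 30.03 and 28.5 under siE3, log2 fold change -0.94), ACSL3 (-0.48), CPT1A (-0.38), CPT2 (-0.32) and ACSL4 (-0.26). Its 20 enzyme genes gave 2 lower and 4 higher, and without siC replicate 1 only 1 gene of the whole list was higher. With all libraries the shares of these enzyme genes were 10% lower and 20% higher, neither above the background. In the pentose phosphate pathway 4 of 9 were lower, RPE (log2 fold change -0.60) and RPIA (-0.50) most.

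Lipid synthesis genes were mostly higher. Of 28 genes of cholesterol synthesis and its control 18 were higher and 2 lower (median 0.24). The SREBP-retaining protein gene INSIG1 went from 174 and 198 CPM under siC to 369 and 421 under siE3 (log2 fold change 1.09), and the factors SREBF1 (0.50) and SREBF2 (0.18) were higher. Among 20 enzymes 13 were higher, including HMGCS1 (265 and 306 CPM under siC and 409.7 and 456 under siE3, log2 fold change 0.60) and PMVK (0.71), and the isomerase IDI1 was lower (-0.56). The sterol carrier STARD4 was lower (log2 fold change -0.51). Of 17 fatty acid synthesis genes 9 were higher and 3 lower (median 0.31). Beside ACLY and SCD these were the synthase FASN (654 and 601 CPM under siC and 894 and 1105 under siE3, log2 fold change 0.67), the elongases ELOVL5 (0.89), ELOVL6 (0.40) and ELOVL1 (0.31), the desaturases FADS1 (0.49) and FADS2 (0.54), and ME1 (0.26). HSD17B12 (log2 fold change -0.66), ACSS2 (-0.37) and FADS3 (-0.30) were the 3 lower ones.

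Lysosomal hydrolase and membrane protein genes were mostly higher while subunits of the proton pump were mixed. Of 46 lysosome genes 23 were higher and 8 lower (median 0.19). By role, 15 of 24 hydrolases were higher and 3 lower, led by the cathepsins CTSD (313 and 319 CPM under siC and 509 and 493 under siE3, log2 fold change 0.66) and CTSZ (0.62) and the acid lipase LIPA (0.58), with CTSC lower (235 and 250.1 CPM under siC and 144 and 153 under siE3, -0.70). Of 9 membrane genes 6 were higher, the cholesterol exporter NPC1 most (114 and 107 CPM under siC and 183 and 198 under siE3, log2 fold change 0.79), and LAMP1 was lower (-0.33). The V-ATPase, which acidifies the lysosome, gave 4 lower and 2 higher of 10, with ATP6V1A lowest (log2 fold change -0.68), and the control genes TFEB, TFE3 and MITF were not called. Autophagy genes were even, 6 higher and 6 lower of 28, and these shares of 21.4% each were near the background. The cargo receptor SQSTM1 (339 and 372 CPM under siC and 540.4 and 578 under siE3, log2 fold change 0.65) and ATG16L1 (0.75) rose and ATG4A fell (-0.37).

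Stress and amino acid genes moved little as groups. In the unfolded protein and ATF4 list 9 of 29 were higher and 3 lower (median 0.065), and the higher count was 5 without siC replicate 1. DDIT4, an inhibitor of mTORC1, rose from 19.7 and 26.4 CPM under siC to 40 and 53.9 under siE3 (log2 fold change 1.02), whereas ATF3 (-0.70) and XBP1 (-0.41) fell and HSPA5 was at -0.09, not called. Of 21 amino acid genes 5 were lower and 3 higher, or 5 higher without siE3 replicate 1. The light and heavy chains of the leucine transporter were both lower, SLC7A5 at 391 and 435 CPM under siC and 217 and 256 under siE3 (log2 fold change -0.81) and SLC3A2 at -0.32.

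Replication genes were more often lower than higher and mitotic genes mostly uncalled. Of 46 DNA replication genes 20 were lower and 4 higher (median -0.13), or 2 higher without siC replicate 2. The replication protein A subunits RPA1 (540.0 and 529 CPM under siC and 337 and 338 under siE3, log2 fold change -0.66) and RPA2 (-0.55), the clamp loaders RFC3 (149 and 154 CPM under siC and 89.7 and 99.9 under siE3, -0.68) and RFC4 (-0.56) and the replication initiation factor MCM10 (-0.53) fell most, and 4 of the 6 MCM2 to MCM7 helicase genes were lower, MCM3 most (-0.42). The clamp loader subunit RFC5 rose (64.3 and 66.8 CPM under siC and 102 and 107 under siE3, log2 fold change 0.67), against the direction of RFC3 and RFC4. Of 40 mitosis genes 10 were lower and 4 higher (median -0.05), a lower share of 25% near the background. The higher count was 2 without siC replicate 1 or siE3 replicate 2 and 8 without siE3 replicate 1. KIF20A (log2 fold change -0.52), MAD2L1 (-0.39) and the cyclin CCNA2 (-0.36) fell, and CDK1 was at -0.00, not called.

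Regulators of the entry into S phase went both ways, 8 higher and 11 lower of 26. CCNE2, a cyclin of the G1 to S step, rose from 32.8 and 38.1 CPM under siC to 57.01 and 69.3 under siE3 (log2 fold change 0.83), and the inhibitor CDKN1C was higher (1.02). E2F2 (log2 fold change -0.80), the pocket protein RBL1 (-0.61) and the ubiquitin ligase subunit SKP2 (-0.46) fell. CDKN1A, which encodes p21, was lower (29.3 and 32.8 CPM under siC and 23.5 and 25.1 under siE3, log2 fold change -0.35). Of 21 p53-linked genes 10 were higher, TP53INP1 and PHLDA3 (log2 fold change 1.04) most, and 5 lower, BTG2 (-0.97) and TNFRSF10B (-0.57) among them. Cytosolic ribosomal protein genes hardly moved, with 6 lower and 1 higher of 73 (9.59% called, median -0.03). RPL14 (log2 fold change -0.44) and RPL35 (-0.27) were lower, and the counts were 3 lower without siC replicate 2 and 0 higher without siC replicate 1 or siE2 replicate 2. These genes and those of ferritin have close genomic copies, and no source states how their shared reads were assigned, which makes their values uncertain.

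Integrins and their laminin ligands were mostly higher while focal adhesion components split. Of 13 integrin genes 8 were higher (median 0.57), and ITGA5 (log2 fold change -0.09) and ITGB3 (-0.05), the only ones with an estimate below 0, were not called. ITGB4, the β4 subunit that pairs with α6 as a laminin receptor, went from 21.6 and 19.2 CPM under siC to 69.99 and 60.4 under siE3 (log2 fold change 1.68, SE 0.0912). ITGAV (log2 fold change 0.92), ITGA2 (0.90), ITGA3 (0.58) and ITGA6 (0.57) also rose. All 8 tested laminin genes were called higher (median 0.39), LAMA5 (log2 fold change 0.20) among them, and LAMB3 was the most abundant of them (193 and 191 CPM under siC and 331 and 317 under siE3, 0.76). Both siE3 libraries of LAMB3 lay above the siC range, as in 34.5% of the genes tested. Of 16 focal adhesion components 7 were lower and 4 higher. The actin crosslinkers ACTN4 and ACTN1 (log2 fold change -0.35), TNS1 (-0.86), vinculin (VCL, -0.31) and paxillin (PXN, -0.30) fell, and talin (TLN1, 0.36) and SRC (0.41) rose. The lower call of CAV1 (log2 fold change -0.15) was lost without siC replicate 1 (edgeR adjusted p = 0.0705) or siE3 replicate 1 (0.0744).

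Matrix genes moved in both directions by large amounts. Of 39 genes 17 were higher and 9 lower (median 0.25). The basement membrane collagen COL4A1 fell from 129 and 112 CPM under siC to 74.4 and 63.04 under siE3 (log2 fold change -0.81), and COL8A1 fell (-0.89), while COL6A1 (0.86) and COL13A1 (0.55) rose. LTBP2, a latent TGF-β binding protein of microfibrils, rose from 67.3 and 67.5 CPM under siC to 128 and 130.0 under siE3 (log2 fold change 0.94), and fibronectin (FN1) was higher (0.42), against the falls of THBS1, CTGF and CYR61. Of the crosslinking enzymes 6 of 10 were higher, PLOD2 (log2 fold change 0.61) and TGM2 (0.56) most, and LOX was lower (-0.24). COL6A3 was called from 0 and 1 counts under siC and 6 and 8 under siE3, too few for a fold change. Of 28 proteases and inhibitors 11 were higher and 6 lower. The urokinase PLAU (113 and 125 CPM under siC and 229.5 and 241 under siE3, log2 fold change 0.98), its receptor PLAUR (0.63), the membrane collagenase MMP14 (0.74) and ADAM8 (1.15) rose, opposite to MMP1. Among their inhibitors TIMP3 rose (30.8 and 30.8 CPM under siC and 74.97 and 76.8 under siE3, 2.46-fold) and TIMP2 fell (261 and 250.3 CPM under siC and 191 and 196 under siE3, log2 fold change -0.41).

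In the TGF-β and BMP pathway 17 of 38 genes were higher and 4 lower (median 0.20). By role, 7 of 10 receptors and 5 of 12 mediators were higher. TGFBR1 and TGFBR2, named above, came with ACVR1 (log2 fold change 0.67) and BMPR2 (0.58), and SMAD5, a mediator of BMP signals, rose from 53.9 and 58.4 CPM under siC to 113 and 122 under siE3 (1.06). Ligands and targets were mixed. TGFB1 was higher (log2 fold change 0.43) and TGFB2 lower (37.02 and 35.1 CPM under siC and 22.2 and 26.05 under siE3, -0.58), and among 8 targets ID1 (0.80) and ID3 (0.70) were higher while TGFBI (-0.16) was lower.

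YAP and TAZ, coactivators held back by the Hippo kinases, showed a like division. TAZ (WWTR1) rose from 178 and 182 CPM under siC to 277 and 306 under siE3 (log2 fold change 0.69) and YAP1 was higher (0.31), as were the kinases LATS1 (27.98 and 26.3 CPM under siC and 55.95 and 59.1 under siE3, 1.08) and LATS2 (0.81), while the upstream kinase STK4 fell (287 and 285 CPM under siC and 152 and 160.2 under siE3, -0.87). Of their 18 targets in the list 9 were lower and 5 higher (median -0.16). CTGF, CYR61, ANKRD1 (log2 fold change -0.64), ASAP1 (-0.92) and NUAK2 (-0.88) were among the lower, and AXL (0.27), PTPN14 (0.47) and NT5E among the higher.

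In the EGFR, MET and AXL list 13 of 24 genes were higher and 4 lower (median 0.22). The ligands EREG (log2 fold change 0.71), TGFA (0.57) and GAS6 (0.54) and the receptors MET (0.48) and MERTK (0.56) rose, and EGFR fell (-0.25). Of 12 feedback genes 7 were higher, PHLDA1 (log2 fold change 0.66) and LRIG1 (0.62) most, and DUSP5 (-0.63) and ERRFI1 (-0.45) were lower. Wnt genes gave 9 higher and 8 lower of 34, the latter 2 without siC replicate 1 and 4 without siE3 replicate 2. With all libraries the Wnt shares were 26.5% higher and 23.5% lower, near the background. The ligands WNT7B (log2 fold change 1.58) and WNT5B (0.37) were higher and WNT5A (-0.77) was lower.

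The adaptor TNFAIP1 and the GTPase RHOA belong to a ubiquitin route that has been tied to ERRα and cell movement. TNFAIP1, which brings RHOA to the CUL3 ligase, fell from 78.1 and 77.8 CPM under siC to 61.5 and 52.8 under siE3 (log2 fold change -0.45, SE 0.0767, edgeR adjusted p = 0.000232), with no overlap, as in 69.1% of the genes tested. RHOA stood at 790.1 and 789.6 CPM under siC and 749 and 774 under siE3 (log2 fold change -0.05, edgeR adjusted p = 0.289) and CUL3 at -0.04, neither called. Of the 15 genes of the route 4 were lower and 2 higher, or 1 higher without siE3 replicate 1. With all libraries the route's shares were 26.7% lower and 13.3% higher. The 40% called in all was near the 42.1% over all genes tested. The lower ones included the atypical GTPase RND3 (log2 fold change -0.62) and the cofilin kinase LIMK1 (93.9 and 95.6 CPM under siC and 59.2 and 53.6 under siE3, -0.75), and the higher ones were RHOB (0.33) and ROCK1 (0.29).

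Innate immune genes were higher in part. Of 38 interferon-stimulated genes and sensors 13 were higher and 1 lower (median 0.14), or 7 higher without siC replicate 1 or siE3 replicate 2. The nucleotide hydrolase SAMHD1 (56.7 and 55.8 CPM under siC and 108 and 107 under siE3, log2 fold change 0.94), IFIT1 (15.1 and 17.5 CPM under siC and 26.1 and 29.2 under siE3, 0.76) and IFI35 (0.74) rose. The double-stranded RNA sensors IFIH1 (log2 fold change 0.83), TLR3 (1.13) and DDX58 (0.37) were higher and EIF2AK2 was at -0.04, not called. Of 36 NF-κB, cytokine and chemokine genes 14 were higher and 4 lower (median 0.26), or 9 and 8 higher without siC replicate 1 and without siE3 replicate 2, and 2 lower without siC replicate 2. The macrophage growth factor CSF1 rose from 37.02 and 38.8 CPM under siC to 88.5 and 92.6 under siE3 (log2 fold change 1.26), with IL11 (1.05) and, from a low level, the receptor IL1R1 (0.95). CSF2 was called from 0 and 1 counts under siC and 3 and 8 under siE3. Of 15 genes of MHC class I presentation 3 were higher (20%), B2M (log2 fold change 0.32) among them, and 2 lower (13.3%), HLA-B (-0.26) among them. Neither share exceeded the background.

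The machinery of RNA interference, which siRNAs use, was partly higher, with 5 higher and 2 lower of 13 genes, or 3 higher without siC replicate 2. DICER1, which cuts small RNA precursors, rose from 172 and 157 CPM under siC to 312 and 334 under siE3 (log2 fold change 0.97), and EIF2C4, an Argonaute gene, from 12.2 and 11.6 CPM under siC to 30.2 and 30.4 under siE3 (1.35). Among hypoxia genes 8 were higher and 8 lower of 28. HIF1A (log2 fold change -0.30) and ARNT (-0.61) were lower, and among the targets ADM fell while NDRG1 (0.59) and BHLHE40 (0.78) rose. Of 35 NRF2, superoxide and iron genes 16 were higher and 4 lower (median 0.13), the latter 2 without siC replicate 1 or siE3 replicate 1. Of 32 kinesins 7 were higher and 7 lower, or 4 lower without siC replicate 2. With all libraries the kinesin shares were 21.9% each way, near the background. KIF3A, the partner of KIF3B in the kinesin-2 motor, rose (log2 fold change 1.17).

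**Figure D4:**
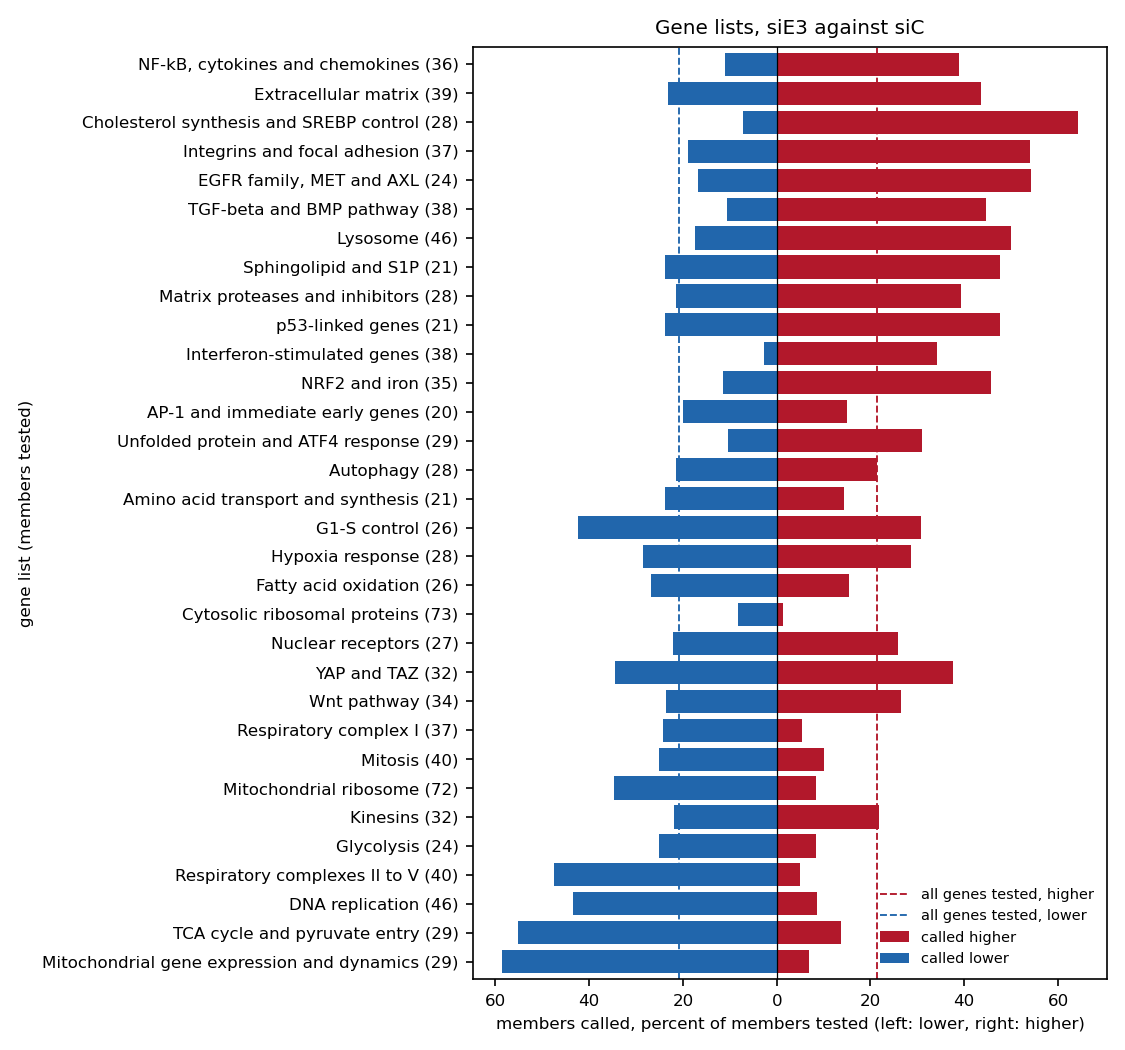
Share of tested members called higher (red, right) and lower (blue, left) under siE3 for the gene lists with at least 20 members tested (number in brackets), ordered by median log2 fold change, with dashed lines at the shares over all genes tested, 21.3% and 20.8%. Mitochondrial gene expression, the TCA cycle and DNA replication lie at the bottom with 58.6%, 55.2% and 43.5% lower, and cholesterol synthesis reaches furthest right with 64.3% higher.

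Markers of cell state did not move as 1 block. Of 13 mesenchymal markers 7 were higher and 2 lower (median 0.16), with SNAI2 (8.63 and 11.4 CPM under siC and 17.1 and 19.3 under siE3, log2 fold change 0.86) and S100A4 (1.23) higher, TAGLN lower (-0.92) and ZEB1 lower (-0.15). The lower count was 1 without siC replicate 1 or without either siE3 library. Of 17 epithelial markers 5 were higher, among them the claudins CLDN3 (log2 fold change 1.04), CLDN4 (1.04) and CLDN7 (0.86), and 3 lower, PKP2 (-0.39), KRT18 (-0.29) and TJP1 (-0.24). The higher count was 3 without siC replicate 2. Of 27 tested nuclear receptors 7 were higher (25.9%) and 6 lower (22.2%), shares near the background.

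Direct tests set siE3 against the other 2 siRNAs. The siC libraries enter these contrasts through the shared estimate of the spread and not through the difference itself. Against siE1, 6529 genes (48.7%) were called, 3405 higher under siE3 (25.4%) and 3124 lower (23.3%). Against siE2, 6491 genes (48.5%) were called, 3351 higher (25%) and 3140 lower (23.4%). Both numbers exceeded the 5643 of siE3 against siC. With scaling by library size alone the split against siE2 was 2851 higher and 3652 lower. These contrasts share the siE3 libraries, and the contrasts of each siRNA against siC share the siC libraries.

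By list, the cytosolic ribosomal proteins lay above siE2, with 66 of 73 higher under siE3 and a median difference of 0.30 (log2). Replication (32 of 46 higher, 4 lower) and mitosis genes (30 of 40 higher, 1 lower) were also above siE2, with median differences of 0.28 and 0.315. Matrix genes lay below siE2 in 26 of 39 cases and above it in 3 (median difference -0.40), and matrix proteases and inhibitors in 16 of 28 and above it in 7 (log2 median difference -0.44). Against siE1 the same lists differed less, with median log2 differences of 0.08, -0.06, 0.11, -0.18 and -0.18. Respiratory complexes II to V were higher under siE3 than under siE2 in 25 of 40 genes (1 lower) and than under siE1 in 20 of 40 (3 lower). Against siC, siE2 itself had 71 of 73 ribosomal protein genes lower (0 higher) and 38 of 46 replication genes lower (2 higher). Its mitosis genes were 36 lower and 1 higher of 40, and its matrix genes 29 higher and 5 lower of 39. In complexes II to V, 35 of 40 were lower and 1 higher under siE2 against siC, and 29 lower and 1 higher under siE1.

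Some genes were set apart under siE3 from siC, siE1 and siE2 at once, in the same direction. There were 1235 of them (9.22%), 536 higher (4%) and 699 lower (5.22%). Among those with a mean of at least 5 CPM over the 8 libraries, RBMS1 had the largest gap upward. It was at 143 and 152 CPM under siE3, against 47.3 and 53.2 under siE1, 56.2 and 55.4 under siE2 and 42.3 and 41.1 under siC. DCP2, the mRNA decapping enzyme, was at 182 and 185 CPM under siE3, against 69.04 and 62.4 under siE1, 76.2 and 76.9 under siE2 and 81.6 and 80.7 under siC. CNOT6, a deadenylase of the CCR4-NOT complex, was at 175 and 185 CPM under siE3, against 100.1 and 97.7 under siE1, 55.2 and 59.03 under siE2 and 93.8 and 90.7 under siC. In these 3 genes both siE3 libraries lay above the other 6. The other high genes were MAST4, MGAT4A, TMC7, CPEB2 and CTNNBIP1, at log2 differences from siC of 1.37, 0.78, 1.27, 1.45 and 1.01.

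Downward, THBS1 had the largest gap under the same limit of 5 CPM. It was at 69.6 and 89.5 CPM under siE3 against 246 and 248 under siE1, 591 and 532 under siE2 and 285 and 266 under siC. The siE3 libraries of THBS1 were the lowest of the 8, while its siE2 libraries were above siC. GALNT2 was at 67.2 and 63.99 CPM under siE3 against 157 and 167 under siE1, 216 and 214 under siE2 and 161 and 156 under siC, and YIPF6 at 37.2 and 37.3 CPM under siE3 against 92.3 and 91.4 under siE1, 96.9 and 102 under siE2 and 96.7 and 96.2 under siC. In both genes the siE3 libraries were the lowest of the 8, well below the next. SDC2, LGI2, IL6R, ZNF271 and ADM completed the 8 lowest, at log2 fold changes of -1.53, -1.37, -1.64, -1.20 and -2.04 against siC.

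**Figure D5:**
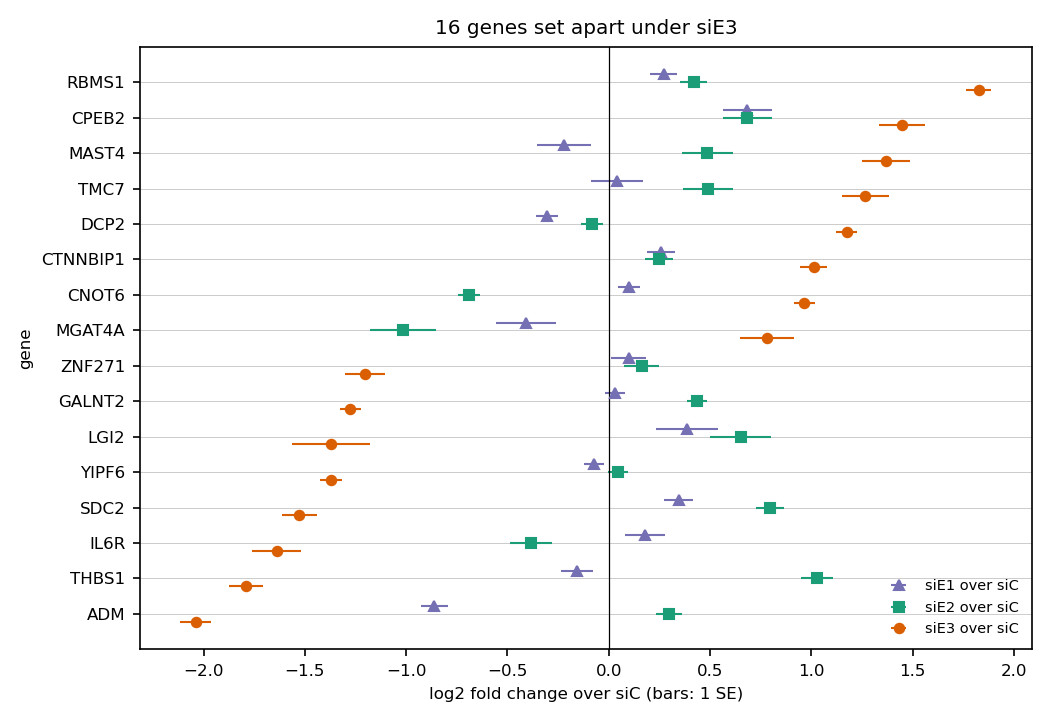
Log2 fold change over siC, with 1 SE, of the 16 genes set furthest apart under siE3 (circles), beside the same genes under siE1 (triangles) and siE2 (squares). The siE3 points lie outside the other two in every gene, as the choice of genes required, from 1.83 for RBMS1 to -2.04 for ADM, and the 3 values of a gene share the siC libraries.

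Against siC, siE1 had 50.3% of genes called (24.5% higher and 25.8% lower) and siE2 56.4% (27.9% and 28.5%). In 125 genes (0.933%) siE3 was called in 1 direction and siE1 and siE2 in the other, with siE3 also called against each of them directly, 47 higher (0.351%) and 78 lower (0.582%) under siE3. This number depended on single control libraries, and was 68 without siC replicate 1 and 54 without siC replicate 2. SDC2 and the iron reductase gene CYBRD1 had large gaps. CYBRD1 stood at 145 and 128 CPM under siC and 71.5 and 67.6 under siE3, against 199 and 207 under siE1, 207 and 217 under siE2. The stress granule gene G3BP2 went the other way, at 145 and 147 CPM under siC and 224 and 249 under siE3, against 126 and 117 under siE1, 98.2 and 96.02 under siE2. In CYBRD1 the siC libraries lay between those of siE3 and of the other siRNAs, and the same order held, upside down, in G3BP2.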

How the data were processed

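RNA extracted with the RNeasy kit from MDA-MB-231 cells was sequenced in 8 libraries by Illumina procedures, per the labels. The authors deposited raw counts per gene symbol, per the file headers, with each siRNA's fold change over siC as a ratio and its adjusted p-value. TopHat 1.3.3, HTSeq, DESeq and the build hg19 stand in the submitters' processing notes, with no role or order. No other column of per-sample values was present.

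The counts were fitted as deposited with edgeR 4.0.16 (R 4.3.3; filterByExpr, TMM factors of 0.98 to 1.02, quasi-likelihood test), all 8 libraries in 1 fit with 4 residual degrees of freedom. Benjamini-Hochberg adjustment ran over 13395 genes, and a gene was called at an adjusted p below 0.05. The biological coefficient of variation was 4.08%. SEs were taken as the absolute log2 fold change over the square root of F. CPM used TMM-scaled totals. Library totals ran from 21835995 to 25880548.

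Tested on data simulated for siE3 against siC (13257 genes), the script recovered 48%, 92%, 100% and 100% of genes seeded at log2 changes of 0.25, 0.5, 1 and 2, and 2.86% of its calls were false. At each size 50 genes with a mean of at least 5 CPM were seeded, and all genes were drawn with 1 common dispersion. In the data 42.1% of genes were called, and the median SE was 0.431 under 1 CPM and 0.0481 over 100 CPM. The simulated shares therefore do not carry over to the real comparison.

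Named were ESRRA and its paralogs, TNFAIP1, RHOA and MMP1, and the 15 highest and 15 lowest called fold changes without overlap. The latter had a mean of at least 5 CPM over the 4 siC and siE3 libraries. The 6 largest CPM gains and losses were named too. So were the 8 genes each way set furthest apart from all groups and the 6 each way against both other siRNAs. Both of these sets had a mean of at least 5 CPM over the 8 libraries. In each list described, up to 4 members with the smallest p and members by role were named. The members and lists were chosen with earlier results of these data known. Promoter windows came from RefSeq (GRCh38.p14) and were matched by symbol for 10469 of the genes tested. Alternatives were DESeq2 1.42.0, limma-voom (limma 3.58.1), other size factors and filters, glmTreat, fewer groups, a replicate block and leaving out each library. No batch is labelled. Figures were drawn with matplotlib 3.10.9. Some genes that the naming rule or the lists hold are not reported here by name.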

Additional observations from a re-analysis of the deposited data

Results flagged for a closer look

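In 125 genes siE3 was called in 1 direction and siE1 and siE2 in the other, with siE3 also called against each of the other siRNAs directly. Of these, the 12 described here had the widest gaps, 6 each way, among those with a mean of at least 5 CPM over the 8 libraries. All 3 fold changes of a gene share the siC libraries. The genes were chosen by these fold changes and by the direct tests, so the values are a description.

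Among the 6 that were higher under siE3, MGAT4A, an N-glycan branching enzyme, was at a log2 fold change of 0.78 under siE3, -0.41 under siE1 and -1.02 under siE2. The stress granule gene G3BP2 was at 0.70, -0.27 and -0.59 on the same scale. RASA1, a brake on RAS, was at log2 values of 0.69, -0.13 and -0.14, so that its falls under siE1 and siE2 were small. The log2 values of STEAP1, a gene of the STEAP family, were 0.64, -0.60 and -0.26. SESTD1 stood at log2 values of 0.51, -0.28 and -0.18, and the mannosyltransferase ALG9 at 0.50, -0.30 and -0.25.

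The other 6 were lower under siE3. The proteoglycan SDC2 had log2 fold changes of -1.53 under siE3, 0.34 under siE1 and 0.80 under siE2. LGI2 followed at log2 values of -1.37, 0.39 and 0.65, from a low level of 5.16 and 4.88 CPM under siC and 2.19 and 1.69 under siE3. The iron reductase CYBRD1 was at -0.97, 0.58 and 0.64 (log2). MKNK2, a kinase of the translation factor eIF4E, was at -0.95, 0.31 and 0.33 (log2). HAS2, which makes hyaluronan, had log2 values of -0.95, 0.41 and 0.23. BBS1, a ciliary transport gene, had log2 values of -0.83, 0.71 and 0.92. With 2 libraries per group, no library could be tested as an outlier within its group.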

How the results depend on the processing

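The 5643 calls of siE3 against siC became 4592 with DESeq2, 5619 with limma-voom, 5327 with only the siE3 and siC libraries, and 4198 to 5525 when 1 library was left out. The share higher among them stayed between 49.7% and 51.8% over the 17 settings. Of the 218 genes fixed beforehand or named by rank or smallest p, 210 kept direction and call over 16 settings. Most of them were chosen from these same data for a large change or a small p, so this count is a description. Members named by role alone were not among the 218, and some of their calls were lost, as for NDUFS5 and NDUFS8. The 1335 genes called with at least 1.5-fold became 397 (264 higher and 133 lower) when glmTreat tested the 1.5-fold limit itself, a stricter question. The 125 genes against the direction of both other siRNAs became 81 with DESeq2 and 54 to 127 when 1 library was left out, and the cause was not tested. EPCAM, not called at 0.07, ranged from -0.0645 without siC replicate 1 to 0.22 without siC replicate 2. The calls of IER3, SPARC and CAV1 were lost without siC replicate 1, of RPL23 without siC replicate 2, and of RPL9 and CAV1 without siE3 replicate 1, while COL3A1 was gained without siC replicate 1. Leaving out 1 library leaves a lone one, which is assumed to vary like the other groups.

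With the replicate block 5221 genes were called. Same-numbered siC and siE3 libraries had deviations correlated at 0.0401, and other group pairs at -0.183 to 0.106, so the numbers were not taken to pair libraries. Depth limits the low end, where a gene under 1 CPM had to change by 0.794 (log2) to be called.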

Other observations

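Genes of the circadian clock went both ways under siE3, 6 higher and 4 lower of 17 tested (median log2 fold change 0.22), the latter 2 without siE3 replicate 2. Of the paralogous activators ARNTL2 was higher (95.8 and 87.7 CPM under siC and 161 and 155 under siE3, log2 fold change 0.79) and ARNTL, the core clock activator, was lower (-0.33). The clock repressor CRY1 fell (119 and 123 CPM under siC and 86.9 and 95.9 under siE3, log2 fold change -0.41), and the output factor DBP (1.26) and the repressor NR1D2 (0.37) were higher. In ARNTL2 and CRY1 both siE3 libraries lay outside the siC range, as in 69.1% of the genes tested. Among the 20 immediate early genes tested, 3 were higher and 4 lower (median 0.07), or 1 higher without siC replicate 1 and 5 without siE3 replicate 1. With all libraries the shares of these genes were 15% higher and 20% lower, not above the background. ATF3 (log2 fold change -0.70), the AP-1 subunit FOS (-0.64), BATF3 (-0.45) and SRF (-0.26) were lower. KLF6 (234 and 259 CPM under siC and 323 and 364 under siE3, 0.48), KLF2 (0.35) and IER3 (0.39) were higher.

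Of 14 enzymes of sphingolipid metabolism 9 were higher and 2 lower under siE3. SPTLC2, a subunit of the enzyme that starts sphingolipid synthesis, rose from 73.98 and 60.5 CPM under siC to 132 and 113 under siE3 (log2 fold change 0.87), and UGCG, which makes glucosylceramide, was higher (0.45), while the ceramide synthase CERS6 fell (-0.57). Of 7 transport and receptor genes in the same list 1 was higher and 3 were lower. SPNS2, the exporter of sphingosine 1-phosphate, fell from 99.8 and 99.02 CPM under siC to 53.2 and 42.8 under siE3 (log2 fold change -1.05), and the lysophospholipid carrier MFSD2A was lower (-0.73). Of 27 nuclear receptors tested 7 were higher and 6 lower (median -0.03), and 4 were higher without siC replicate 2 and 9 lower without siE3 replicate 1. With all libraries the receptor shares were 25.9% higher and 22.2% lower, near the background. PPARA fell from 80.7 and 69.3 CPM under siC to 51.98 and 44.9 under siE3 (log2 fold change -0.63). PPARG rose from 44 and 46.96 CPM under siC to 62.3 and 69.1 under siE3 (0.53). The liver X receptor NR1H3 (log2 fold change 0.93) was higher, and the retinoic acid receptors RARA (-0.36) and RARG (-0.36) were lower while RARB was higher (0.51).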
